A study of Homo sapiens with 12 samples.

Results

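The genes described here make serine, mitochondrial one-carbon units, asparagine and proline. They are PHGDH, PSAT1, PSPH, SHMT2, MTHFD2, MTHFD1L, ALDH1L2, ASNS, PYCR1 and ALDH18A1, chosen by name from the gene names in the scanner output, and they are 10 of the 29245 gene names with a probe on the array. They have 18 probes, of which 5 members have 1 each and 5 have more than 1, and all 18 passed the filter on dim probes. The cells were HuH-7, an established line from a human liver cancer. They received the solvent DMSO, 28 µM SLMP53-2 or 42 µM SLMP53-2 for 24 h, and their RNA was measured on 12 microarrays of 1 colour, 4 per group. SLMP53-2 is a small molecule that was developed to restore function to mutant p53, and the cells of all 3 groups carry the mutant p53 Y220C named in the labels. The doses are 2 and 3 times the IC50, and the higher one is 42 µM in most labels and 48 µM in another label of the same arrays. The labels call the 4 arrays of a group biological replicates. The question the design poses for these genes is whether their mRNA differed between each dose and DMSO, and between the doses.

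Cells make serine from a glycolytic intermediate in 3 steps, run by PHGDH, PSAT1 and PSPH. SHMT2 then splits serine in the mitochondria into glycine and a one-carbon unit carried by folate. MTHFD2 oxidizes that unit, after which MTHFD1L releases it as formate or ALDH1L2 oxidizes it to carbon dioxide. ASNS makes asparagine from aspartate and glutamine, and ALDH18A1 and PYCR1 run the first and the last step of proline synthesis from glutamate. Several of these genes are known targets of ATF4, the transcription factor of the amino acid and integrated stress responses, which binds as a dimer to composite sites of the form TGATGNAA.

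The ASNS promoter is the textbook example of such a site and is shown for that reason, as the 100 bases before the start site of 1 of its transcripts (RefSeq, GRCh38.p14, chr7:97872409-97872508, minus strand). Capitals mark TGATGAAA, which begins 68 bases before the start, and GTTACA, which begins 48 bases before it and is the second element known from this promoter. A stretch of 30 bases around the only other match among the members, TGATGCAA in MTHFD1L (chr6:150866346-150866375, plus strand), is given below it, and there the capitals mark that match alone.
ASNS: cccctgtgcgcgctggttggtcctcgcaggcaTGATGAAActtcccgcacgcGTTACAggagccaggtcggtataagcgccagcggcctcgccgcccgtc
MTHFD1L: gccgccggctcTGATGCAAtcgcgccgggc

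The windows searched run from 250 bases before to 50 bases after a start site, on both strands. ASNS, PHGDH, PSAT1, MTHFD2, MTHFD1L and ALDH18A1 had 10 such windows between them, and PSPH, SHMT2, ALDH1L2 and PYCR1 had none in the table. TGATGNAA was found in 4 of these 10 windows, which belong to 2 of the 6 genes, and in 3.62% of all 35116 windows. GTTACA was found in 1 of the 10, of ASNS, and in 6.66% of all windows. CACGTG, the E-box, was found in 4 of the 10 and in 7.26% of all windows. Those 4 belong to MTHFD1L and to ALDH18A1, where it begins 136 bases before the start. The TGATGCAA match in MTHFD1L is a single site seen from 3 overlapping windows. It begins 129 or 90 bases before the start or 25 bases after it. The same 3 windows hold the CACGTG of MTHFD1L. The share of all genes with each motif was not computed. A match describes the letters only.

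Every value below is a normalized log2 intensity or a difference of such values. A log2 fold change of 1 is a doubling, a gene was called when limma's Benjamini-Hochberg adjusted p was under 0.05 and its log2 fold change at least 0.6 in size, and the probe with the highest mean level stands for a gene unless another is named. Before the results, 1 array has to be set apart. The array labelled 28 µM replicate 4 correlated with the 4 DMSO arrays at 0.980 to 0.995 and with the other 28 µM arrays at 0.962 to 0.987 over 33411 probes. Relative to the DMSO mean, the median of the 10 members was 0.05 on this array, 1.03 to 1.27 on the remaining 28 µM arrays and 0.83 to 1.29 at 42 µM. Results at 28 µM are therefore given with and without it. The members' own values were part of that choice, so the changes and adjusted p-values without this array are a description only. The labelled cell type was checked on its markers, and 10 of 10 hepatocyte genes, ALB and AFP among them, were well above background on all 12 arrays. Of 10 genes of blood, endothelial and stromal cells, 5 were also above background on all arrays, and PTPRC, the defining blood cell gene, was above it on 3. No member probe was saturated. RNA was taken from whole cultures, in which fewer cells of a kind and less RNA per cell cannot be told apart.

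At 42 µM, 7 of the 10 members rose, namely ASNS, ALDH1L2, PHGDH, MTHFD2, PSAT1, MTHFD1L and PYCR1. Over all 24259 genes tested, 381 were called higher, or 1.57%. The median log2 fold change of the 10 members was 0.93, against −0.02 over all genes. By probe, 10 of the 18 were called higher, against 1.41% of all probes. At least 1 such probe was found for 9 of the 10 members, since PSPH and SHMT2 were called by a second probe only. That count favours genes with several probes, and the share of all genes with any probe called was not computed. Both ALDH1L2 probes passed the filter on dim probes through treated groups alone. Of the other 16 probes 8 were called, and of the other 9 members 6. ALDH18A1 alone was lower than on DMSO, and its change met neither limit. In 8 members every 42 µM array lay above every DMSO array, a pattern that 5.92% of all genes showed.

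At 28 µM no member was called with all 12 arrays, as was true of 0 of the 24259 genes (0%). The smallest adjusted p of any probe was 0.116. The median log2 fold change of the members was 0.88, and 6 of them were higher at an unadjusted p under 0.05 and the same fold limit, as were 1.46% of all genes. In 3 members, PHGDH, MTHFD1L and ALDH1L2, every 28 µM array lay above every DMSO array, against 2.78% of all genes. Without replicate 4 the same 7 members as at 42 µM were called higher at 28 µM, with a median over the 10 of 1.20, against 1.45% of all genes called. These calls carry no weight of their own, as that array was set apart partly on the members' values.

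**Figure D1:**
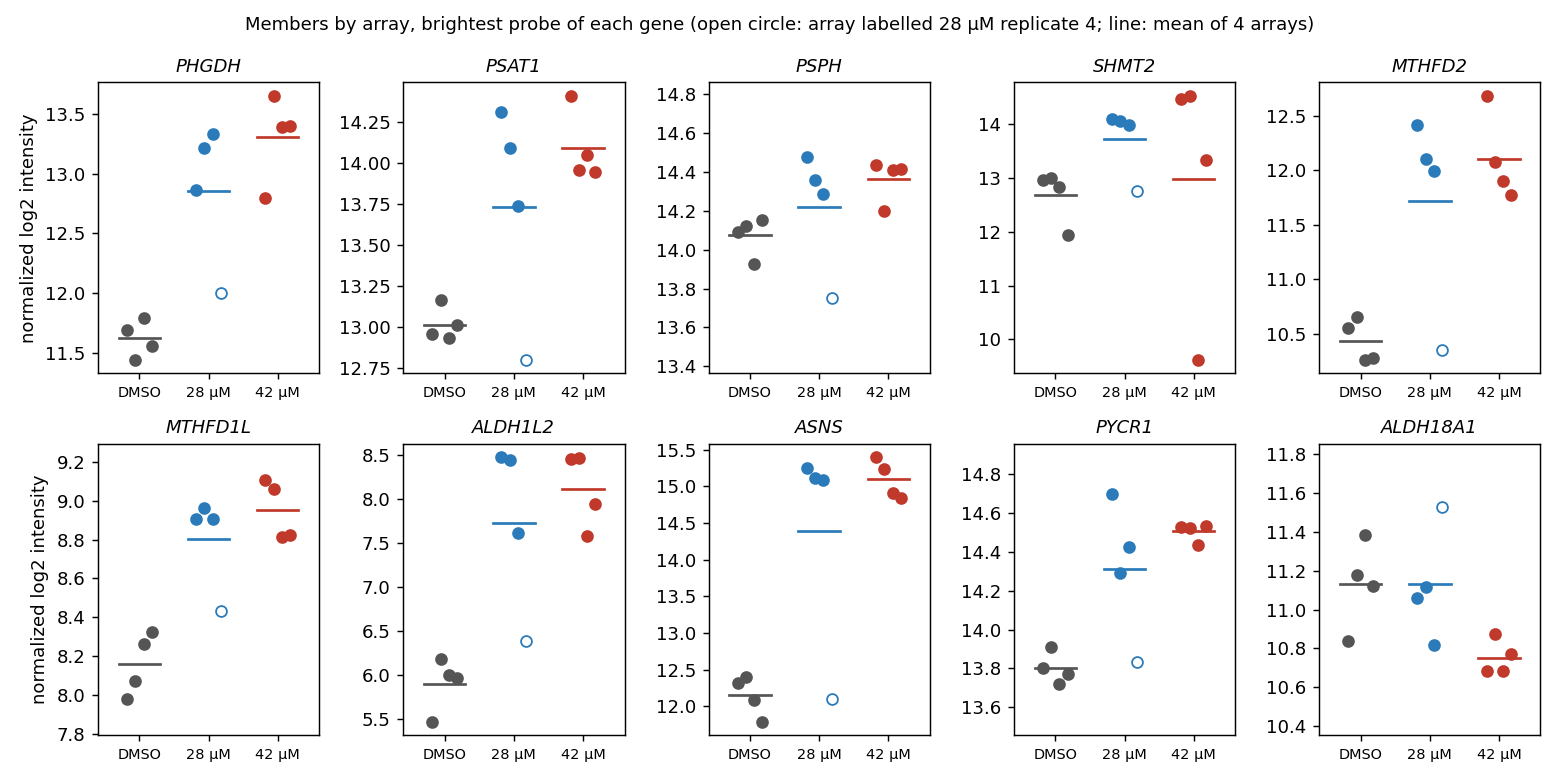
Normalized log2 intensity of the brightest probe of each member (vertical axis, its own scale in each panel) on each of the 4 arrays of the 3 groups, with a line at each group's mean. The open circle is the array labelled 28 µM replicate 4, which lies among or near the DMSO arrays for most members, and the low 42 µM point of SHMT2 is replicate 3 at 9.61.

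PHGDH, the enzyme that commits carbon to serine, was measured by 1 probe on chromosome 1 of hg19, 120285529 to 120285588, plus strand. It read 11.69, 11.44, 11.79 and 11.55 on the DMSO arrays, 12.87, 13.22, 13.33 and 11.999 on the 28 µM arrays and 12.80, 13.65, 13.39 and 13.40 on the 42 µM arrays. All 8 treated arrays lay above all DMSO arrays, with 28 µM replicate 4 the lowest of them. PHGDH rose by 1.69 on the log2 scale at 42 µM (SE 0.26, adjusted p = 0.0112 from limma), or 3.23-fold. Its change at 28 µM came to 1.24 (SE 0.26, adjusted p = 0.171), and without replicate 4 it was 1.52 (adjusted p = 0.00197) and called.

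PSAT1, the transaminase of the second step, was measured on chromosome 9, 80944778 to 80944837, plus strand. Its levels were 12.96, 13.17, 12.93 and 13.01 on DMSO, 14.31, 14.09, 13.74 and 12.80 at 28 µM and 14.41, 13.96, 14.05 and 13.95 at 42 µM. The 42 µM arrays all lay above DMSO, while 28 µM replicate 4 lay below every DMSO array. At 42 µM PSAT1 rose by 1.08 (SE 0.25, adjusted p = 0.0386), a change of 2.11-fold. At 28 µM the value was 0.72 (SE 0.25, adjusted p = 0.316) and without replicate 4 it was 1.03 (adjusted p = 0.00573).

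PSPH, the phosphatase that releases serine, has 3 probes, and they did not read alike. The brightest (chromosome 7, 56078799 to 56078858, minus strand) read 14.09, 14.12, 13.93 and 14.15 on DMSO, 14.48, 14.36, 14.29 and 13.75 at 28 µM and 14.44, 14.20, 14.41 and 14.42 at 42 µM. Its groups at 42 µM and on DMSO did not overlap, but the log2 fold change was 0.29 (95% interval −0.02 to 0.61, adjusted p = 0.377) and not called. The second (56078786 to 56078845) read 13.13, 13.39, 13.28 and 13.58 on DMSO, 14.62, 14.47, 14.27 and 13.13 at 28 µM and 14.69, 14.56, 14.56 and 14.27 at 42 µM. By this probe PSPH rose by 1.17 at 42 µM (SE 0.26, adjusted p = 0.0290), or 2.26-fold, and changed by 0.78 at 28 µM (adjusted p = 0.287), which was 1.11 and called without replicate 4 (adjusted p = 0.00265). The third (56079033 to 56079092) lay between 7.47 and 8.02 on DMSO and between 7.87 and 8.56 at 42 µM, with overlapping groups and a change of 0.36 (adjusted p = 0.376). Stretches of 20 bases or more of the third probe are shared with 6 other probes of the array, all under other gene names.

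The first and second PSPH probes cover nearly the same place and are shown because they gave different changes. They share 47 bases, in which they differ at 3. Written from the first probe to the second and counted from 1 at the first probe's 5′ end, the differences are G26A, T31C and A32G. The stretch of 30 bases that holds them is given from each probe, with the differing bases in capitals. Which transcripts each version binds was not tested.
PSPH first probe: ctttactcttagGaataTAgattcggcagc
PSPH second probe: ctttactcttagAaataCGgattcggcagc

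SHMT2, the mitochondrial hydroxymethyltransferase, has 2 probes on chromosome 12, plus strand. The brightest (57628345 to 57628404) read 12.95, 12.99, 12.84 and 11.94 on DMSO, 14.10, 14.06, 13.99 and 12.75 at 28 µM and 14.46, 14.53, 9.61 and 13.34 at 42 µM. The value of 9.61 on 42 µM replicate 3 is below every other array. It comes from 1 spot with a mean intensity of 726 over a local background of 48, where the other 42 µM arrays had 9994 to 21510. With it the change at 42 µM came to 0.30 (SE 0.83, adjusted p = 0.926), and without that array it was 1.43 (SE 0.38, adjusted p = 0.0856), so that this probe was called in neither case. The second probe, whose ends at 57627837 and 57628019 lie 183 bases apart for 60 bases of probe, read 10.45, 10.61, 11.10 and 11.004 on DMSO, 11.88, 12.32, 12.15 and 11.46 at 28 µM and 12.08, 12.82, 12.42 and 12.29 at 42 µM. All treated arrays lay above all DMSO arrays, 42 µM replicate 3 included. By this probe SHMT2 rose by 1.61 at 42 µM (SE 0.21, adjusted p = 0.0112), or 3.05-fold. At 28 µM its change was 1.16 (SE 0.21, adjusted p = 0.142), and 1.32 without replicate 4 (adjusted p = 0.00566), which was called.

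MTHFD2, the mitochondrial methylenetetrahydrofolate dehydrogenase, was measured on chromosome 2, 74441985 to 74442044, plus strand. Its levels were 10.55, 10.65, 10.26 and 10.27 on DMSO, 12.42, 12.10, 11.99 and 10.35 at 28 µM and 12.69, 12.08, 11.90 and 11.77 at 42 µM. The lowest 42 µM array was above the highest DMSO array by more than 1 log2 unit, and 28 µM replicate 4 lay among the DMSO arrays. MTHFD2 rose by 1.67 at 42 µM (SE 0.36, adjusted p = 0.0259), or 3.19-fold. At 28 µM the value was 1.28 (adjusted p = 0.219), and 1.74 without replicate 4 (adjusted p = 0.00140). The call at 42 µM was lost in 9 of 24 alternatives, with values of 1.48 to 1.79 over all 24.

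MTHFD1L, the mitochondrial synthetase that releases formate, has 4 probes on chromosome 6, plus strand. The brightest, whose ends lie 2424 bases apart (151355724 to 151358147), read 7.98, 8.07, 8.26 and 8.32 on DMSO, 8.91, 8.96, 8.90 and 8.43 at 28 µM and 9.11, 9.06, 8.81 and 8.82 at 42 µM. All treated arrays lay above all DMSO arrays. By it MTHFD1L rose by 0.79 at 42 µM (SE 0.14, adjusted p = 0.0157), or 1.73-fold. At 28 µM the change was 0.64 (adjusted p = 0.175), and 0.77 without replicate 4 (adjusted p = 0.00880). The other 3 probes had log2 fold changes of 0.44 to 0.99 at 42 µM with adjusted p of 0.109 to 0.409, and none was called. Their treated and DMSO arrays overlapped at both doses.

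ALDH1L2 is the mitochondrial formyltetrahydrofolate dehydrogenase, which turns the one-carbon unit to carbon dioxide. It has 2 probes on chromosome 12, minus strand, and neither was well above background on any DMSO array. The brighter one (105413903 to 105413962) read 5.47, 6.19, 6.00 and 5.96 there, 8.48, 8.44, 7.62 and 6.39 at 28 µM and 8.45, 8.47, 7.58 and 7.95 at 42 µM, and was above background on all 8 treated arrays. Its DMSO values thus lie near background. With Edwards background correction the bound on the rise at 42 µM was 4.55-fold, against a measured 4.62-fold. The limma test of the measured values gave an adjusted p of 0.0152. This probe passed the filter through treated groups alone, in which it is high, so its call carries no weight of its own. The size depends on the correction, and the same bound was 3.80-fold with normexp, against a measured 3.84-fold. It came to 3.97-fold from the authors' values and 21.1-fold with the processed signal under quantile normalization. In both of these the bound equals the measured fold, so it adds nothing to the measured values. At 28 µM the bound was 3.50-fold by the means with the Edwards correction, against a measured 3.55-fold. The measured change there was called only without replicate 4 (limma adjusted p = 0.171 with it and 0.00128 without it). These bounds set the treated mean against the dimmest signal that counted as well above background on each DMSO array, or the probe's own where that was higher. By this rule the bounds of the brighter probe lie close to or at its measured folds and are no strict lower limits. The dimmer probe (105417968 to 105418027) read 6.24 to 6.33 at 42 µM against 5.42 to 5.81 on DMSO. It was above background on 4 of 4 arrays at 42 µM and on 1 at 28 µM. By the measured values it was called at 42 µM (limma adjusted p = 0.0282), and the bound was 1.46-fold. It passed the filter through the 42 µM group alone, in which it is high, so its call carries no weight of its own either.

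ASNS is asparagine synthetase. Its probe lies on chromosome 7 of hg19, 97481461 to 97481520, minus strand. It read 12.33, 12.41, 12.08 and 11.79 on DMSO, 15.25, 15.11, 15.08 and 12.10 at 28 µM and 15.40, 15.23, 14.90 and 14.84 at 42 µM. Replicate 4 of 28 µM lay among the DMSO arrays, and the other 7 treated arrays read 14.84 or more. ASNS rose by 2.94 at 42 µM (SE 0.53, adjusted p = 0.0160), or 7.68-fold. Without replicate 4 the change at 28 µM was 3.00 (SE 0.17, adjusted p = 1.49e-05), and with it 2.23 (SE 0.53, adjusted p = 0.184). The ASNS probe shares a stretch of at least 20 bases with 1 other probe, which the array lists under a transcript identifier in place of a gene name.

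PYCR1, the reductase of the last step to proline, has 2 probes on chromosome 17, minus strand. The brighter one (79890331 to 79890390) read 13.80, 13.91, 13.72 and 13.77 on DMSO, 14.70, 14.29, 14.43 and 13.83 at 28 µM and 14.53, 14.53, 14.43 and 14.54 at 42 µM. The 42 µM arrays lay close together and above all DMSO arrays, while 28 µM replicate 4 lay among the latter. By it PYCR1 rose by 0.71 at 42 µM (SE 0.15, adjusted p = 0.0268), or 1.63-fold. At 28 µM the value was 0.51 (adjusted p = 0.238), and 0.67 without replicate 4 (adjusted p = 0.0126). The dimmer probe (79891183 to 79891242) had a change of 0.64 at 42 µM with overlapping groups and was not called (adjusted p = 0.268).

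ALDH18A1, the enzyme that opens the path from glutamate to proline, was the 1 member with a value below 0 at 42 µM. Its probe (chromosome 10, 97366137 to 97366196, minus strand) read 10.84, 11.18, 11.38 and 11.12 on DMSO, 11.06, 11.12, 10.82 and 11.53 at 28 µM and 10.69, 10.87, 10.68 and 10.77 at 42 µM. The 42 µM arrays lay low but overlapped with DMSO replicate 1. The log2 fold change was −0.38 at 42 µM (SE 0.15, 95% interval −0.71 to −0.04, adjusted p = 0.247) and 0.00 at 28 µM (adjusted p = 0.998).

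**Figure D2:**
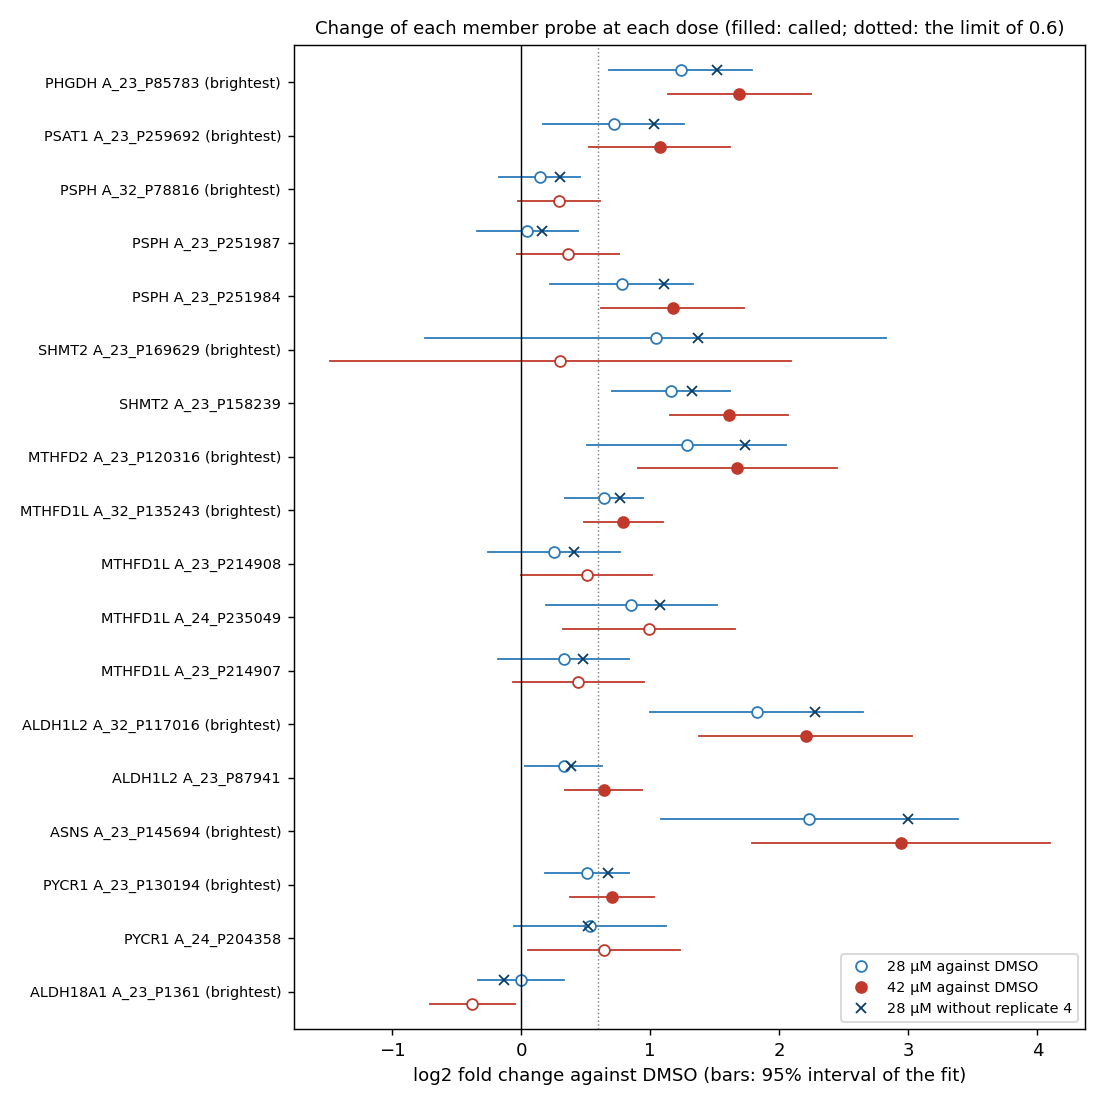
Log2 fold change against DMSO (horizontal axis, with the 95% interval of limma's fit) of all 18 member probes at 28 µM and 42 µM, filled where called with all 12 arrays. Crosses give 28 µM without replicate 4, and the dotted line is the limit of 0.6. The 10 filled points are all at 42 µM, and the wide bars of SHMT2's brightest probe span 0 at both doses.

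The 42 µM and 28 µM groups were compared directly in the same fit. No member was called, nor was any of the 24259 genes (0%), and no member was past the limits at an unadjusted p under 0.05, against 0.111% of all genes higher there. The median difference of the members was 0.28 in favour of 42 µM with all arrays, with 8 of 10 members above 0. Without 28 µM replicate 4 it was −0.03, with 4 of 10 above 0. For ASNS the difference was 0.71 (95% interval −0.44 to 1.86) with that array and −0.05 without it. For PHGDH it was 0.46 (−0.10 to 1.01) and 0.17. Both intervals include 0.

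The 12 arrays lie on 5 slides, and 3 slides hold both a 42 µM and a DMSO array. For 8 of 10 members the 42 µM array was above the DMSO array on all 3 of these slides. SHMT2's brightest probe was above on 2 of the 3 and ALDH18A1 on 0. The share of all genes above on all 3 was not computed. The median difference of the 10 members was 1.32, 1.36 and 0.81 on them. For ASNS the within-slide differences ran from 2.50 to 3.61 and for PHGDH from 1.24 to 1.96. SHMT2's brightest probe gave −3.38 on the slide of 42 µM replicate 3. For 28 µM, the slides of replicates 1 and 3 gave member medians of 1.31 and 0.98, and the slide of replicate 4 gave 0.10.

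The adjusted p-values rest on few arrays. All 7 calls at 42 µM were lost without DMSO replicate 2 (log2 fold changes 0.74 to 3.03, adjusted p 0.0508 to 0.0902), without 42 µM replicate 2 (0.70 to 2.90, adjusted p 0.0525 to 0.102) and with the slide as a block (0.72 to 3.00, adjusted p 0.0561 to 0.0745). The loss was general, as these fits called 0, 0 and 1 of all probes. At an unadjusted p under 0.05 and the same fold limit the 7 were higher in each, as were 3.05%, 2.74% and 3.22% of all genes. The calls of the second SHMT2 and PSPH probes were lost in the same 3 fits. With any one of DMSO replicates 1, 3 and 4 or 42 µM replicate 1 left out, 4 members were called, and PSAT1, MTHFD2 and PYCR1 were not. The 28 µM arrays also enter the spread that the groups share. The 7 had limma adjusted p of 0.0112 to 0.0386 with all arrays and 6.3e-05 to 0.0062 with only DMSO and 42 µM fitted. Leaving out 28 µM replicate 4 gave 4.1e-06 to 0.0030, a description only, as the members' values were part of that choice. The last 2 fits called 1191 and 1220 of all probes, in either direction.

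**Figure D3:**
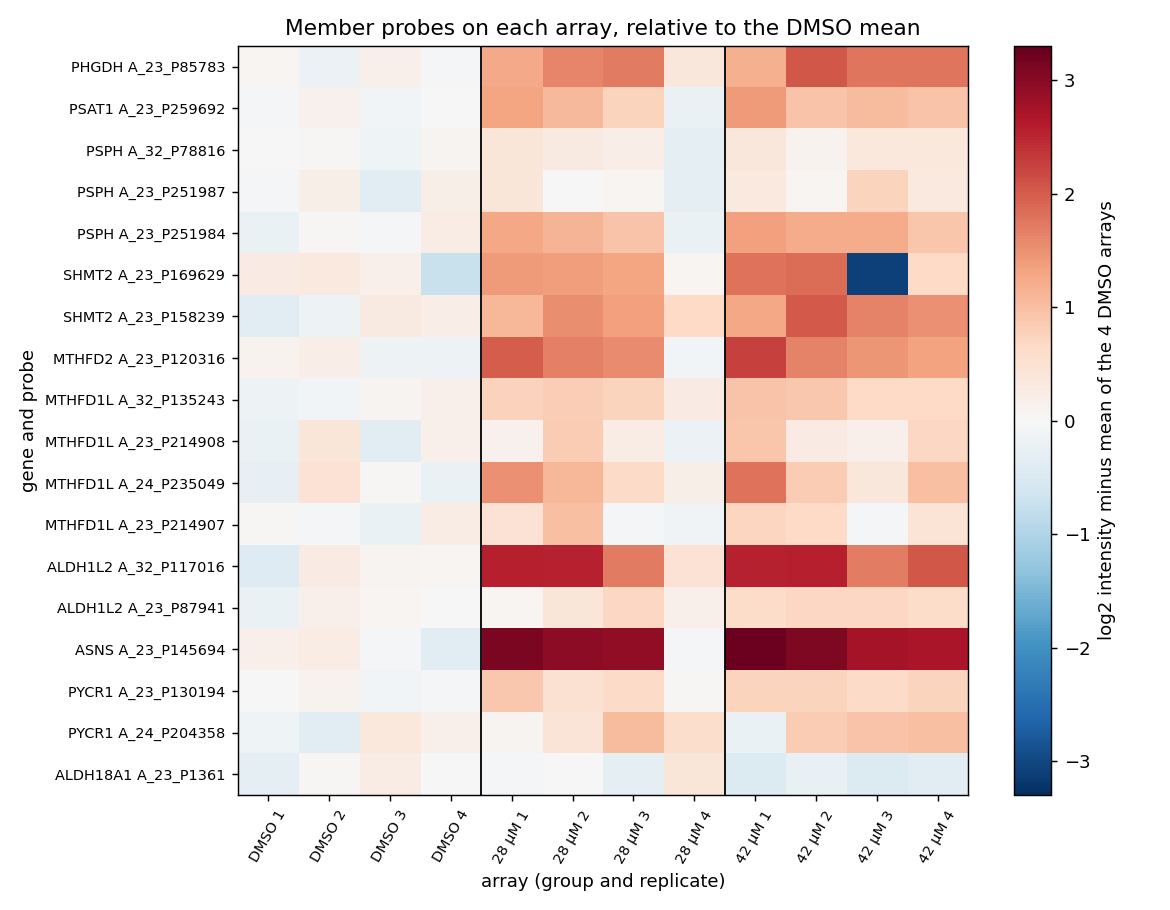
Colour gives the log2 intensity of each of the 18 member probes (rows) on each array (columns) minus the mean of the 4 DMSO arrays. The column 28 µM replicate 4 is pale, with a member median of 0.05, while the other 7 treated columns have medians of 0.83 to 1.29 over the brightest probes. The dark blue cell is SHMT2's brightest probe on 42 µM replicate 3.

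Of the 41 other genes of the same pathways, all were measured, and 4 were called at 42 µM, 1 higher and 3 lower. Their median log2 fold change was −0.02, the same as over all genes, of which 1.42% were called lower. The 4 calls fell to 0 with the slide as a block and without DMSO replicate 1, 2 or 4 or 42 µM replicate 2, and to 2 without DMSO replicate 3 or 42 µM replicate 1 or 4. At 28 µM none was called, and without replicate 4 SDSL was called higher. SDSL, a serine dehydratase-like enzyme, was the 1 of 12 other serine and glycine genes called. It read 8.66, 8.71, 8.53 and 8.87 on DMSO, 9.75, 10.06, 9.80 and 8.62 at 28 µM and 9.73, 10.13, 9.63 and 9.94 at 42 µM. All 42 µM arrays were above all DMSO arrays, and 28 µM replicate 4 again lay among them. SDSL rose by 1.16 at 42 µM (SE 0.25, adjusted p = 0.0259).

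Among 15 other folate genes, 2 were called lower, TYMS among them. TYMS, which uses a one-carbon unit to make thymidylate, read 12.30, 12.59, 12.46 and 12.45 on DMSO, 11.81, 11.61, 11.65 and 12.26 at 28 µM and 11.17, 10.72, 11.74 and 11.75 at 42 µM. Every treated array was below every DMSO array. TYMS fell by 1.10 on the log2 scale at 42 µM (SE 0.22, adjusted p = 0.0184). TYMS serves DNA synthesis and is commonly counted among S phase genes.

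ASRGL1, an asparaginase that breaks asparagine down, fell at 42 µM by all 4 of its probes, with log2 fold changes between −0.79 and −0.65 (adjusted p 0.0172 to 0.0495). It was the 1 of 8 asparagine, aspartate and glutamine genes called. Its brightest probe read 11.20, 10.89, 10.71 and 10.51 on DMSO and 10.33, 10.16, 10.29 and 9.93 at 42 µM, and the groups did not overlap. None of the 6 other proline and ornithine genes was called by its brightest probe. For ALDH4A1, which degrades proline, 1 of 3 probes was called lower (−0.70, adjusted p = 0.0410), while the brightest gave −0.01.

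**Figure D4:**
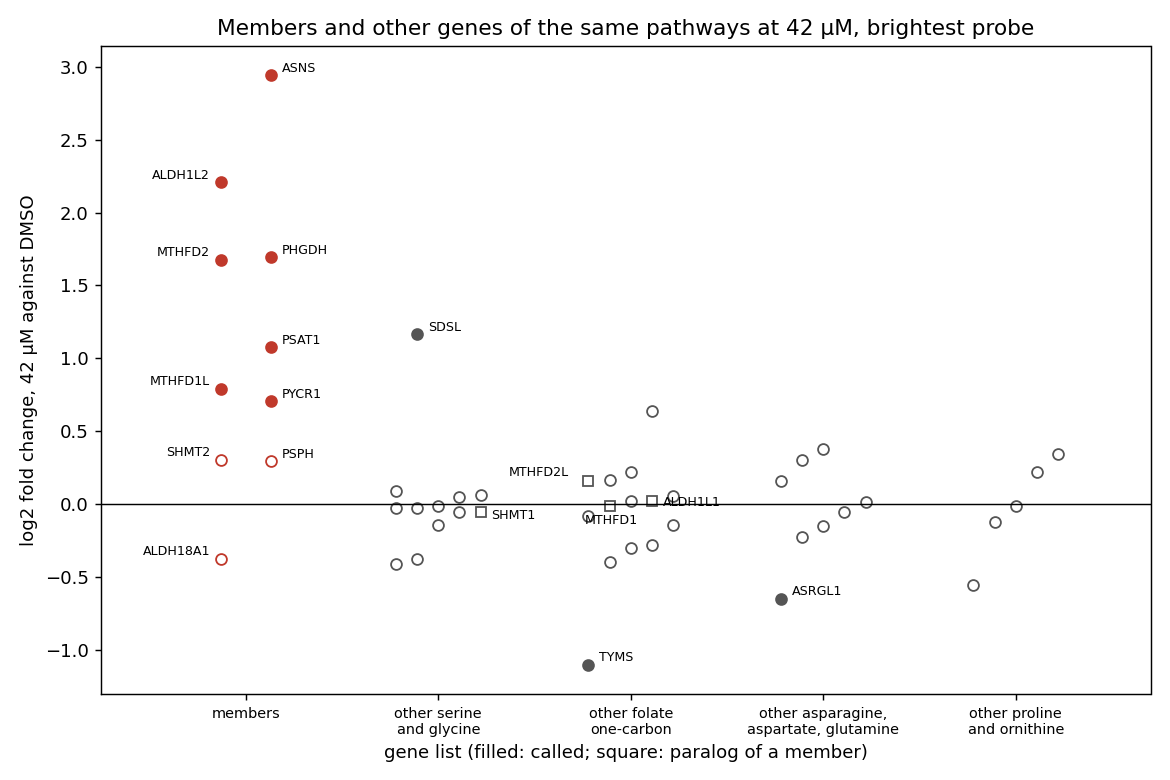
Log2 fold change at 42 µM against DMSO (vertical axis) of the brightest probe of each member (red) and of 39 of the 41 other genes of the same pathways (grey), by list. Filled points were called, and squares are the paralogs SHMT1, MTHFD2L, MTHFD1 and ALDH1L1, which lie between −0.05 and 0.16. Of the grey points SDSL is called higher and TYMS and ASRGL1 are called lower.

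For SHMT2, MTHFD2, MTHFD1L and ALDH1L2 the array also measures a close paralog, an enzyme of a matching reaction that works in the cytosol for SHMT1, MTHFD1 and ALDH1L1 and in the mitochondria for MTHFD2L. None of these 4 paralogs was called at either dose. Their log2 fold changes at 42 µM were −0.05 for SHMT1, 0.16 for MTHFD2L, −0.01 for MTHFD1 and 0.02 for ALDH1L1, with adjusted p of 0.685 to 0.983. The MTHFD2L probe was above background on 9 of 12 arrays and on 2 of 4 DMSO arrays, so that its values there lie close to background. ALDH1L2 is left out of the next comparison, as it was not above background on DMSO. The difference between member and paralog on each array was compared between treated and DMSO arrays with a two-sided exact permutation test, for which 0.0286 is the smallest p that 4 against 4 arrays allow. At 42 µM the member exceeded the paralog by 1.52 more than on DMSO for MTHFD2 and by 0.81 for MTHFD1L. Both had that smallest p (exact permutation, adjusted p = 0.0952 over the 10 tests of brightest probes). For SHMT2's brightest probe the value was 0.36 (exact permutation p = 0.857). At 28 µM the 3 values were 0.54 to 1.30 (exact permutation p of 0.0571 to 0.171). With SHMT2's second probe at 42 µM, chosen after its values were seen, the value was 1.66 (exact permutation p = 0.0286). That probe was left out of the adjustment. None of the pairs of brightest probes passed after adjustment, which this design could reach only if most of the 10 tests gave the smallest p.

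Across the 12 arrays, ALDH1L2, ASNS and MTHFD2 followed the mean of the members' standardized values most closely (Pearson r of 0.990, 0.975 and 0.973), a mean to which each contributes. ALDH18A1 ran against it (−0.53) and SHMT2's brightest probe followed it at 0.48. Among the 24249 other genes tested, those most like this mean were TRIB3 (0.984), GDF15 (0.981), PCK2 (0.978) and a pair of entries with no gene symbol, THC2642650 (0.977) and S73202 (0.976). All these genes share the 12 arrays and their 3 groups, and the correlations are a description. On 28 µM replicate 4, TRIB3 read 13.18 against 13.19 to 13.33 on DMSO and PCK2 read 10.26 against 10.21 to 10.73. GDF15 read 15.26 there, above its DMSO range of 14.94 to 15.17. THC2642650 read 6.27 against 6.28 to 6.37, and S73202 read 6.85 against 6.69 to 7.097.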

How the data were processed

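The authors deposited Agilent Feature Extraction output (10.7.3.1 per the file headers) for 12 arrays, with the mean and local background intensity of every spot, and a table of their own log2 values after Edwards background correction and quantile normalization. Probe positions are on hg19 per the file headers. Both steps were repeated here with limma 3.58.1 in R 4.3.3 on the intensities. Control spots and outliers marked by the scanner software were dropped and a probe's spots averaged. Probes that failed the software's background test on 3 or more of the 4 arrays of each group were removed, and 33477 of 41000 probes were tested in 1 limma model of all 12 arrays, two-sided. Accessions matched RefSeq for 68.5% of probes, and other probes kept the array's name. The number of arrays limits the precision.

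All members and all their probes are named, with the paralogs, the other pathway genes called in any comparison and the 5 genes most like the members. Of these, 2 genes that enter the counts and the adjustment are not reported here. The members, lists and tests were chosen with earlier results of these data known. Alternatives were other background corrections and scalings, the authors' log2 values, other filters, slide or replicate blocks, only the groups compared, a log2 limit of 1, all probes of a gene, and leaving out each array. The fit was tested on simulated data with independent noise, no slide effect and no treated array that read like DMSO. That checks the code and says nothing on those features of these arrays.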

Additional observations from a re-analysis of the deposited data

Results flagged for a closer look

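Among 54 groups of 4 arrays (18 member probes in 3 groups), 7 held 1 array apart from the other 3 by Dixon's test, where chance gives about 1 in 20. Array 28 µM replicate 4 was that array for ASNS (12.10, others 15.08 to 15.25), SHMT2's brightest probe (12.75, others 13.99 to 14.10) and MTHFD1L's brightest probe (8.43, others 8.90 to 8.96). SHMT2's brightest probe also read 11.94 on DMSO replicate 4, against 12.84 to 12.99. The others were PSPH's brightest probe on 42 µM replicate 2 (14.20, others 14.41 to 14.44), PYCR1's dimmer probe on 42 µM replicate 1 (8.85, others 9.91 to 10.06) and its brighter probe on 42 µM replicate 3 (14.43, others 14.53 to 14.54). SHMT2's value of 9.61 on 42 µM replicate 3 was not among the 7, as replicate 4 of that group also read lower than the others, at 13.34.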

How the results depend on the processing

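The number of members called higher at 42 µM was 7, and 4 with the processed signal under quantile normalization or at the 75th percentile, 0 with the slide as a block and 0 to 7 without single arrays. At 28 µM it was 0 and ranged from 0 to 7 without single arrays, where 7 came without 28 µM replicate 4 alone. No alternative called a member between the doses. The other pathway genes called at 42 µM numbered 4, and 2 with either form of the processed signal, 0 with the slide as a block, 2 at a log2 limit of 1 and 0 to 4 without single arrays. With the replicate block, 7 members and 4 other pathway genes were called at 42 µM and 0 members at 28 µM, as without it. Deviations of same-numbered arrays correlated above 0.1 in 7 of 12 pairs, and their median was 0.21 on different slides, against −0.18 for arrays of different number and slide. Not every array correlated best with its own number, and the numbers were not taken to pair the arrays. Over all probes, 885 were called at 42 µM, and 1366 with the replicate block, 442 with the processed signal under quantile normalization, 366 at a log2 limit of 1, 1 with the slide as a block and 0 to 1220 without single arrays. The 7 members called at 42 µM kept their direction in all 24 alternatives with a value for each gene. PSAT1 and PYCR1 lost their calls in 13 each, down to 0.85 and 0.47 with the processed signal at the 75th percentile, and MTHFD2 in 9. ALDH1L2 at 42 µM ranged from 1.94 with normexp to 4.49 with the processed signal at the 75th percentile. The sign turned only for values near 0 or with a wide error: SHMT2 at 42 µM ranged from −0.21 to 1.43 without single arrays, PSPH at 28 µM was −0.0714 and −0.0648 with the processed signal and the Edwards values at the 75th percentile, and ALDH18A1 at 28 µM was −0.044 and −0.0819 with these, −0.0024 with the slide as a block and −0.13 to 0.11 without single arrays. Fewer arrays or a block also leave fewer residual degrees of freedom. Signal near background limits ALDH1L2 on DMSO.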
